A study of Mus musculus with 18 samples.

Results

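The tumour suppressor gene Trp53 and 9 genes that the p53 protein is known to switch on were followed in mouse testes that had been exposed to the alkylating drug busulfan. The members were Trp53, Mdm2, Ccng1, Cdkn1a, Zmat3, Phlda3, Eda2r, Aen, Trp53inp1 and Sesn2, chosen by gene symbol from 22657 genes of 1 RNA-seq table, and all 10 were found. Testes of ICR mice that had received 1 busulfan injection (40 μg/g body weight) at 3 weeks of age were taken 2 weeks later and cultured for 48 h with alginate oligosaccharides (AOS), short sugar chains cut from the alginate of brown seaweed, at 0, 10 or 50 μg/mL (groups B0, BA10 and BA50). Testes of age-matched mice without busulfan were cultured in the same medium with the same 3 AOS concentrations (A0, A10 and A50), so that every group went through culture and A0 was not fresh tissue. Each group had 3 samples, 18 in all. Whole testis was used, in which germ cells, Sertoli cells, Leydig cells and other cells are mixed, and several testes went into each treatment.

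Busulfan links DNA strands to each other, and such damage is sensed by the kinases ATM and ATR, which pass the signal to p53. The p53 protein is mostly controlled after translation: Mdm2 marks it for destruction, and damage loosens that hold. Freed p53 binds DNA at pairs of 10-base half-sites and raises genes that stop the cell cycle (Cdkn1a), promote cell death (Eda2r, Aen, Trp53inp1, and Phlda3, which restrains the survival kinase Akt), curb growth signalling (Sesn2) or limit p53 itself (Mdm2, Ccng1). In the testis, spermatogonia are the germ cells for which busulfan is best known as toxic.

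The DNA around the start of the genes is shown for 3 members because they span what was found: Cdkn1a varied most between samples, Mdm2 varied least, and Ccng1 gave the smallest p-value after busulfan. The windows are RefSeq sequence of GRCm38.p6 and run from 250 bases before a transcript start to 50 bases after it. Capitals mark p53 half-sites, in Cdkn1a also a complete 20-base site. A half-site reads as a half-site on either strand, so both strands were covered.
Cdkn1a, upstream start, chr17:29090729-29091028, plus strand: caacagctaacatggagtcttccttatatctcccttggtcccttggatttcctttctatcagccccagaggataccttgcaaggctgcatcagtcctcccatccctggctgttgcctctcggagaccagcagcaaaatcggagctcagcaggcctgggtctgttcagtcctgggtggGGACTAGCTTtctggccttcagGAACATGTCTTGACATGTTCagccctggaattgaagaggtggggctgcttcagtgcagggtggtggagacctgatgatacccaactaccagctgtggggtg
Mdm2, chr10:117710709-117711008, minus strand: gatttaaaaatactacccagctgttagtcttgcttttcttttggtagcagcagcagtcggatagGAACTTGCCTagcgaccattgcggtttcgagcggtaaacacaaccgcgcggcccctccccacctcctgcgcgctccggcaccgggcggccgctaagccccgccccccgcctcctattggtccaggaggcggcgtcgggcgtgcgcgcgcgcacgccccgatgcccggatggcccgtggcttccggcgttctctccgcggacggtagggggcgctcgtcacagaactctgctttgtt
Ccng1, chr11:40755237-40755536, minus strand: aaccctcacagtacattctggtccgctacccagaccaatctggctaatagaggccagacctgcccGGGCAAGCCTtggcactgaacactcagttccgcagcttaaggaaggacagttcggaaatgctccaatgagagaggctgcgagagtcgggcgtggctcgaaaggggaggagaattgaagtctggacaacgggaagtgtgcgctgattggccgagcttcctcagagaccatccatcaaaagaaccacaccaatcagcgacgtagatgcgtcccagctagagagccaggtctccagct

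Cdkn1a held the 20-base site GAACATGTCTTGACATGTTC, 2 half-sites joined without a spacer, at chr17:29090928-29090947, which starts 51 bases before the upstream of its 2 listed starts. A site of 20 to 21 bases with at most 2 mismatches outside the half-site cores was in 0.32% of 32851 windows of the same length, and the Cdkn1a site had 1 such mismatch. A further Cdkn1a half-site, GGACTAGCTT, started 73 bases before that start, and the window of the other start, 2790 bases downstream, held none. Single half-sites were found in Mdm2 (GAACTTGCCT, 186 bases before the start), Ccng1 (GGGCAAGCCT, 185 bases before), Trp53 (GGACTTGCCC, 75 bases before) and Aen (GGGCTTGTCC, 121 bases before one start and 10 after the other). Windows of Phlda3, Sesn2 and Eda2r held none. In all, 5 of the 8 members with a window had at least 1 half-site, in 6 of their 10 windows, beside 8.36% of all windows. These are letter matches, not measured binding, and sites further away, as in introns, lie outside the windows. Zmat3 and Trp53inp1 had no entry.

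Expression was given as FPKM, fragments per kilobase of transcript scaled to the library, a level per length that can be set side by side between genes. FPKM sums per sample ran from 463970 to 511274. How many reads each sample had is unknown, so precision was judged from the 3 samples of a group. Of all genes, 15790 reached 1 FPKM in at least 3 samples and were tested, and all 10 members did so in every sample. Samples of a group correlated at Pearson's r of 0.962 to 0.993 over genes. A10 replicate 3, BA10 replicate 2 and BA50 replicate 2 stood apart from the other samples of their groups in many marker genes. For the busulfan change over all AOS concentrations, counts of called genes in the gene lists that change without them are given both ways. Other results are given without them only in part. The 3 were picked after the data were seen. Other samples stood out in single marker lists and were kept. Summed fat cell markers of B0 replicate 1 were at 888 FPKM, beside 207 and 280 in the other B0 samples. Summed simple epithelium markers of B0 replicate 2 were at 216, beside 81.4 and 90.15. Shares of all genes called refer to the fit of all 18 samples. The labels do not say whether the 3 samples of a group came from separate mice, so the spread between them may in part be technical.

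**Figure D1:**
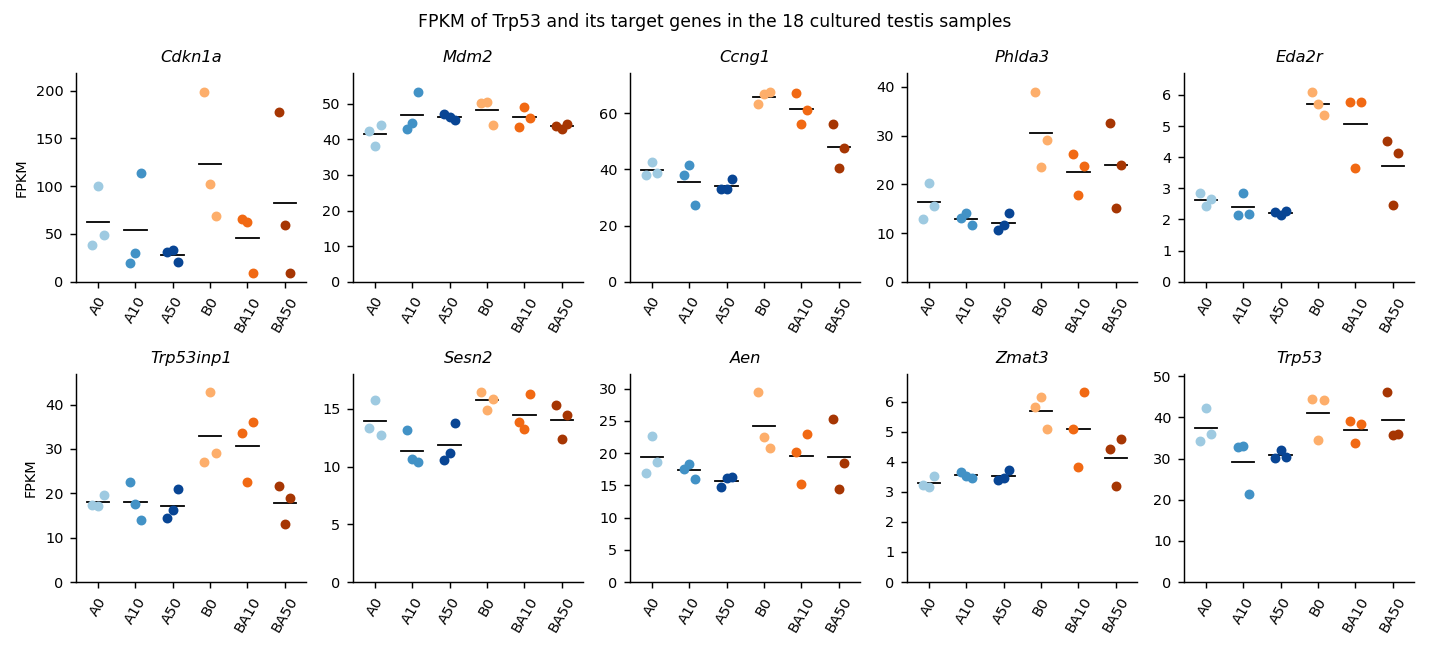
FPKM of the 10 members (vertical axes, each from 0) in each sample of the 6 groups (horizontal axes), with 1 point per sample and a line at the group mean. Ccng1, Phlda3, Eda2r and Zmat3 stood higher in B0 than in A0 without overlap, Mdm2 stayed between 38.0 and 53.2 throughout, and Cdkn1a ran from 9.05 to 198 with wide spread inside groups.

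The levels of the members differed widely. Ccng1, Cdkn1a, Mdm2 and Trp53 stood highest, with means over the 9 samples without busulfan of 36.5 ± 4.75 (SD, n = 9), 48.3 ± 34.4, 44.9 ± 4.11 and 32.5 ± 5.53 FPKM. Zmat3 (3.46 ± 0.185) and Eda2r (2.42 ± 0.291) stood lowest. The highest of the 6 group means was that of B0 for all 10 members, but in every member the B0 samples overlapped with those of the group next below. The share of all genes with the highest mean in B0 was not counted.

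Over the 3 AOS concentrations together, 7 of the 10 members were higher after busulfan (9 samples against 9, limma on log2(FPKM + 1), adjusted p under 0.05 over all genes tested). Of all genes tested, 13.3% were called higher and 24.8% lower under the same rule. The 7 were Phlda3, Eda2r, Ccng1, Trp53inp1, Zmat3, Trp53 and Sesn2. Cdkn1a, Mdm2 and Aen did not pass. The median log2 change of the 10 members was 0.44, beside 0.01 over all genes tested. None of the 10 met the stricter limits of the study's methods (adjusted p of at most 0.001 with a log2 change of at least 1), which 0.0887% of all genes met in the higher direction.

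Phlda3 encodes a small protein that competes with Akt for membrane lipids. It stood at 12.95, 20.36 and 15.55 FPKM in A0 and at 38.90, 23.65 and 29.15 in B0. It was at 13.07, 14.17 and 11.55 in A10 and 26.27, 17.83 and 23.74 in BA10, and at 10.61, 11.64 and 14.18 in A50 and 32.62, 15.20 and 24.01 in BA50. At each AOS concentration every sample with busulfan lay above every sample without it. The log2 change over all 3 concentrations was 0.83 (SE 0.14, limma adjusted p = 0.0003022), the largest of the members that passed. The exact two-sided permutation test within AOS concentrations (8000 arrangements) gave p = 0.00025, the smallest it can give.

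Eda2r, a receptor of the tumour necrosis factor family that binds ectodysplasin A2, showed the largest ratio of group means without AOS. It was at 2.84, 2.43 and 2.65 FPKM in A0 and at 6.09, 5.71 and 5.37 in B0, a ratio of 2.17. In A10 it was at 2.14, 2.86 and 2.19 and in BA10 at 5.76, 3.65 and 5.76. In A50 it was at 2.24, 2.15 and 2.28 and in BA50 at 4.51, 2.47 and 4.15. Again no busulfan sample fell into the range of the samples without busulfan at the same AOS concentration, though BA50 replicate 2 came within the range of A0 and A10. The log2 change was 0.74 (SE 0.098, limma adjusted p = 2.404e-05; exact permutation p = 0.00025).

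Ccng1 encodes cyclin G1, a partner of a phosphatase that acts on Mdm2. Its FPKM was 37.83, 42.57 and 38.70 in A0 and 63.29, 66.80 and 67.41 in B0. It was 37.95, 41.49 and 27.28 in A10 and 67.00, 55.96 and 60.99 in BA10, and 32.90, 33.05 and 36.45 in A50 and 56.02, 40.34 and 47.68 in BA50. The groups with and without busulfan did not overlap at any AOS concentration, and 8 of the 9 busulfan samples lay above all 9 samples without busulfan, the exception being BA50 replicate 2. The log2 change was 0.66 (SE 0.081), with the lowest adjusted p of the members (1.126e-05 by limma; exact permutation p = 0.00025).

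Zmat3 encodes a zinc finger protein that binds RNA. It was at 3.22, 3.16 and 3.54 FPKM in A0 and at 5.83, 6.16 and 5.10 in B0. At 10 μg/mL it was at 3.66, 3.54 and 3.46 without and at 5.08, 3.84 and 6.30 with busulfan, and at 50 μg/mL at 3.39, 3.45 and 3.72 without and at 4.42, 3.20 and 4.76 with it. The 9 samples without busulfan lay within 3.16 to 3.72 FPKM, the tightest relative range of the 10 members, and BA50 replicate 2 was the 1 busulfan sample inside it. The log2 change was 0.40 (SE 0.081, limma adjusted p = 0.001186; exact permutation p = 0.00225). With the 4 groups with AOS alone it was 0.28 and did not pass (adjusted p = 0.08764).

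Trp53inp1, a nuclear protein that promotes p53-dependent death and autophagy, was at 17.30, 17.11 and 19.57 FPKM in A0 and at 26.99, 42.73 and 29.00 in B0. It was at 22.61, 17.52 and 14.00 in A10 and at 33.71, 22.50 and 36.07 in BA10. In A50 it was at 14.42, 16.17 and 20.97, and in BA50 at 21.65, 13.02 and 18.84. B0 lay wholly above A0, BA10 replicate 2 fell just below the highest A10 sample, and BA50 and A50 overlapped throughout. The overall log2 change was 0.53 (SE 0.13, limma adjusted p = 0.006309; exact permutation p = 0.00775), and it was 0.39 with adjusted p = 0.1161 when the 4 groups with AOS alone were used.

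Trp53 itself was at 34.21, 42.32 and 36.03 FPKM in A0 and at 44.38, 34.62 and 44.16 in B0. It was at 32.77, 33.12 and 21.46 in A10 and at 39.11, 33.70 and 38.30 in BA10, and at 30.11, 32.13 and 30.39 in A50 and at 46.07, 35.79 and 36.08 in BA50. A0 and B0 overlapped, while the groups with AOS did not overlap with their busulfan counterparts, by less than 1 FPKM at 10 μg/mL. The log2 change of 0.27 (SE 0.091) passed with limma adjusted p = 0.02916 and exact permutation p = 0.0075. The call did not survive leaving out any 1 of 8 samples (A0 replicate 1 or 3, A50 replicate 1, B0 replicate 1 or 3, BA10 replicate 1 or 3, BA50 replicate 1), with log2 changes of 0.23 to 0.27 and adjusted p of 0.0506 to 0.05926.

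Sesn2, sestrin 2, a stress-induced brake on mTOR signalling, was at 13.31, 15.78 and 12.69 FPKM in A0 and at 16.41, 14.93 and 15.81 in B0, which overlapped. It was at 13.15, 10.64 and 10.37 in A10 and, wholly above them, at 13.82, 13.25 and 16.26 in BA10. In A50 it was at 10.58, 11.19 and 13.73 and in BA50 at 15.32, 12.38 and 14.43, which overlapped. Its log2 change was small, 0.24 (SE 0.072, limma adjusted p = 0.0164; exact permutation p = 0.00425). With FPKM rescaled to equal sums per sample (TPM), neither Sesn2 (0.21, adjusted p = 0.05736) nor Trp53 (0.23, adjusted p = 0.08492) passed, and with the groups with AOS alone Sesn2 did not pass either (0.28, adjusted p = 0.05512).

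Aen encodes a nuclease that enters the nucleolus and nucleus in dying cells. Over the samples without busulfan its lowest, median and highest values were 14.7, 16.9 and 22.7 FPKM, and over those with busulfan 14.5, 20.8 and 29.4. B0 held the highest sample of all (29.39), while the other B0 samples (22.43 and 20.80) lay below the highest A0 sample (22.70). The log2 change of 0.23 (95% interval 0.002 to 0.46) did not pass across genes (limma adjusted p = 0.103), while the exact permutation test of this single gene gave p = 0.048. Without the 3 samples that stood apart it was 0.33 with adjusted p = 0.01435, and under quantile normalization 0.29 with adjusted p = 0.04171.

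Cdkn1a encodes p21, the inhibitor of cyclin-dependent kinases that carries out much of the p53 arrest of the cell cycle. Its FPKM was 38.37, 99.84 and 48.91 in A0 and 198.42, 102.44 and 68.96 in B0. It was 19.29, 30.09 and 113.44 in A10 and 65.33, 62.33 and 9.05 in BA10, and 31.21, 33.02 and 20.35 in A50 and 177.30, 59.32 and 9.19 in BA50. The highest of the 18 values was 21.9 times the lowest, and single samples decided the picture: BA10 replicate 3 and BA50 replicate 3 were the lowest of all, below every sample without busulfan. The ratio of the means was 1.98 for B0 to A0, 0.84 for BA10 to A10 and 2.91 for BA50 to A50, and the groups overlapped each time. The overall log2 change was 0.48 with a 95% interval of −0.68 to 1.64 (limma adjusted p = 0.5084; exact permutation p = 0.4148), an interval that held falls as well as rises. Leaving out BA50 replicate 1 lowered it to 0.16, and leaving out BA50 replicate 3 raised it to 0.85.

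Mdm2, the ligase that ends the p53 response and a p53 target in turn, behaved in the opposite way in its spread. It was at 42.43, 38.00 and 43.87 FPKM in A0 and at 50.06, 50.35 and 43.98 in B0. It was at 43.02, 44.50 and 53.22 in A10, at 43.52, 49.20 and 45.95 in BA10, at 47.19, 46.20 and 45.49 in A50 and at 43.85, 42.96 and 44.15 in BA50. B0 lay above A0 by a narrow margin, BA10 and A10 overlapped, and BA50 lay below A50. The overall log2 change was 0.04 with a 95% interval of −0.07 to 0.15 (limma adjusted p = 0.5988; exact permutation p = 0.5005), the narrowest interval of the members, and its sign turned under TPM (−0.003).

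**Figure D2:**
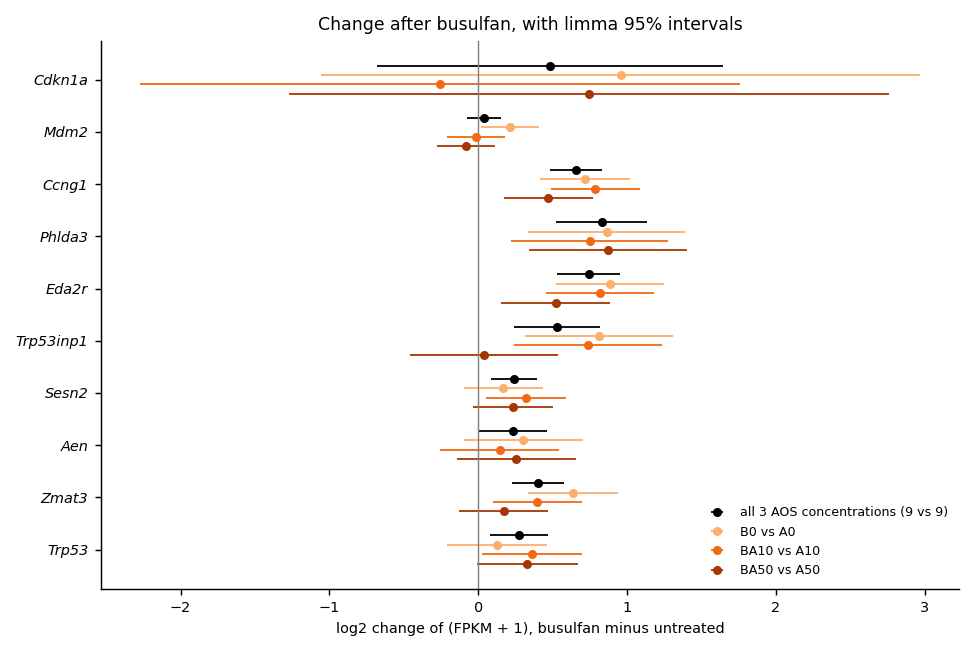
Change of each member after busulfan on the log2(FPKM + 1) scale (horizontal axis), as points with 95% intervals from limma, over all 3 AOS concentrations (9 samples against 9) and at each one (3 against 3). The intervals of Ccng1, Phlda3 and Eda2r lay above 0 in all 4 comparisons, the Cdkn1a intervals spanned 0 each time, and the Trp53inp1 estimate was 0.81 without AOS and 0.04 at 50 μg/mL.

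Each AOS concentration was also taken alone, with 3 samples against 3. An exact test of 3 against 3 cannot go below p = 0.1, so only limma, which shares the spread of all 6 groups, gave calls. Without AOS, 5 members were higher in B0 than in A0 (Eda2r, Phlda3, Trp53inp1, Ccng1 and Zmat3), beside 1.47% of all genes called higher. The log2 changes were 0.89 (SE 0.17) for Eda2r, 0.86 (0.25) for Phlda3, 0.81 (0.23) for Trp53inp1, 0.72 (0.14) for Ccng1 and 0.63 (0.14) for Zmat3, with adjusted p from 0.002219 to 0.03054. At 10 μg/mL, 4 were higher in BA10 than in A10 (Eda2r 0.82, Ccng1 0.79, Phlda3 0.75 and Trp53inp1 0.73), beside 3.74% of all genes. At 50 μg/mL, 3 were higher in BA50 than in A50 (Phlda3 0.87, Eda2r 0.52 and Ccng1 0.47), beside 3.7%. Without the 3 samples that stood apart it was 5, when Zmat3 (0.31) and Trp53 (0.39) passed too, with no share of all genes to set beside it. In these fits Phlda3, Eda2r and Ccng1 were called at each concentration, but Phlda3 at 10 μg/mL did not pass with a replicate block (adjusted p = 0.05558), nor Ccng1 at 50 μg/mL under quantile normalization (adjusted p = 0.05138). Under quantile normalization Mdm2 passed without AOS (0.25, adjusted p = 0.04324), and Zmat3 (0.43, adjusted p = 0.03109) and Sesn2 (0.35, adjusted p = 0.04843) at 10 μg/mL. Fitted on the 2 groups alone, with less information on the spread, 4 members passed without AOS and 0 at 10 or 50 μg/mL, although the log2 changes were the same. Single samples carried some calls: 3 members were left without AOS when A0 replicate 1, A0 replicate 3 or B0 replicate 3 was left out, 2 were left at 10 μg/mL without A10 replicate 2, A10 replicate 3, BA10 replicate 1 or BA10 replicate 3, and 0 at 50 μg/mL without A50 replicate 1, A50 replicate 2, BA50 replicate 1 or BA50 replicate 3. At 10 μg/mL 2 members passed without a filter on low values, and at 50 μg/mL 1 passed under TPM.

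Counting samples without a model, 6 members had every B0 sample above every A0 sample, beside 10.5% of all genes. The same count was 6 for BA10 above A10 (beside 11% of all genes) and 4 for BA50 above A50 (beside 16%), with Mdm2 below instead, as 25.7% of all genes were. Across all 9 against 9, no member separated fully, as for all but 0.513% of genes in the higher direction. Up to 8 of the 9 busulfan samples lay above every sample without busulfan, in Ccng1, Eda2r and Zmat3, and 7 did so in Phlda3.

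The study asked whether AOS changes the testis after busulfan, so BA10 and BA50 were compared with B0. No member passed for either concentration, beside 0.0253% of all genes called at 10 μg/mL and 0.095% at 50 μg/mL in either direction. At 50 μg/mL all 10 estimates were below 0, with a median log2 change of −0.38 beside −0.04 over all genes tested, and BA50 and B0 did not overlap in 4 members (Trp53inp1, Eda2r, Ccng1 and Zmat3), beside 13.5% of all genes with every BA50 sample lower. The same 4 had an unadjusted p under 0.05, beside 24.3% of all genes in either direction. The largest estimate among them was that of Trp53inp1, −0.85 (SE 0.23, limma adjusted p = 0.1036), with a mean of 17.8 ± 4.40 FPKM in BA50 (n = 3), 32.9 ± 8.57 in B0 and 17.99 ± 1.37 in A0. Eda2r (−0.54, adjusted p = 0.1155), Ccng1 (−0.46, adjusted p = 0.1113) and Zmat3 (−0.40, adjusted p = 0.1318) followed. Samples of B0 and BA50 with the same number deviated from their group means together (r over genes of 0.562, 0.422 and 0.138). The labels do not mark pairs, so this pairing was chosen from the data. In all 3 same-numbered pairs 8 of the 10 members, all but Mdm2 and Trp53, were lower in BA50, beside 27.7% of all genes. As the pairs were picked from these data and several members moved together, this count only describes the samples and adds no separate evidence. With a block over these pairs no member passed, and Trp53inp1 was nearest at adjusted p = 0.09508.

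Cell markers of the same comparison are set beside these values. Against B0, fat cell markers in BA50 had a median of −2.57 (7 of 7 below 0, 4 called lower), simple epithelium −2.80 (6 of 6, 3 called lower), endothelium −0.65 (6 of 6), macrophages −0.44 (8 of 8), and spermatid markers 1.07 (12 of 12 above 0). Without the 3 samples that stood apart, the medians were −2.53, −2.68, −0.49, −0.11 and 0.80, with 0 called in these lists, and that of the 10 members was −0.20. The part of these markers in the lower member values was not tested.

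The estimates of Trp53inp1, Eda2r, Ccng1 and Zmat3 leaned on single samples. BA50 replicate 2 was the lowest BA50 sample in 9 of the 10 members. Without it Trp53inp1 was at −0.65, Eda2r at −0.33, Ccng1 at −0.34 and Zmat3 at −0.26, with adjusted p of 0.5275 to 0.5637. Without BA50 replicate 1, in contrast, 3 members passed: Trp53inp1 (−0.99, adjusted p = 0.04389), Eda2r (−0.67, adjusted p = 0.04673) and Ccng1 (−0.57, adjusted p = 0.04389), while the number of genes called in all rose from 15 to 1115.

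At 10 μg/mL all 10 estimates against B0 were below 0 as well, with a median of −0.15 beside −0.03 over all genes. Cdkn1a had the largest, −1.70 (95% interval −3.71 to 0.32), or −0.80 without BA10 replicate 3, and was the 1 member with every BA10 sample below every B0 sample, beside 7.75% of all genes. Both comparisons share the B0 samples. As B0 had the highest group mean in all 10 members, the estimates below 0 at both concentrations largely restate that count.

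**Figure D3:**
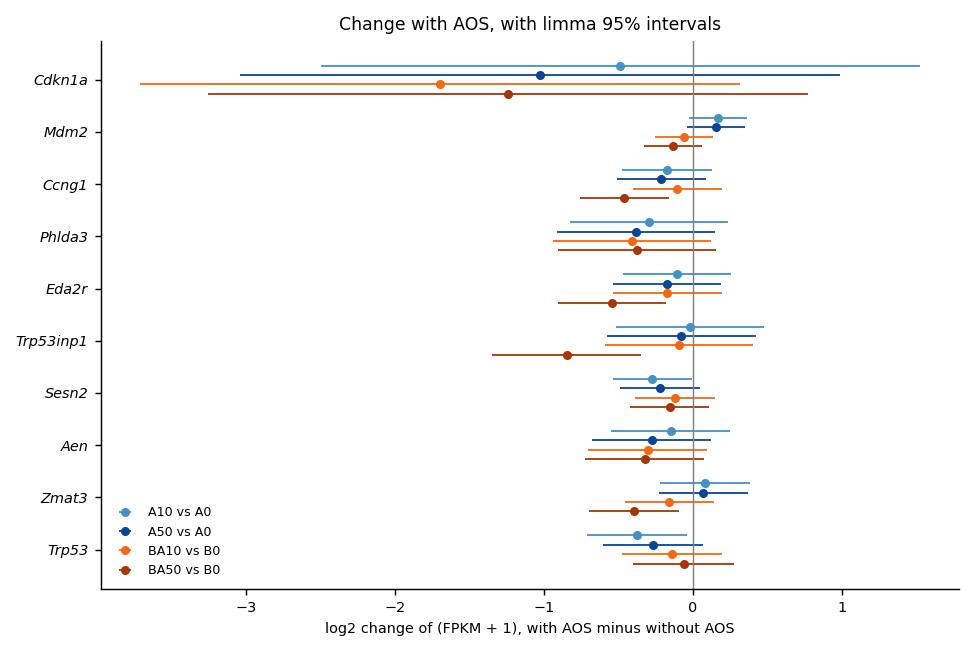
Change of each member with AOS on the log2(FPKM + 1) scale (horizontal axis), as points with 95% intervals from limma, with 3 samples against 3, without busulfan (blue) and after busulfan (orange and brown). Trp53inp1 in BA50 against B0 lay furthest from 0 relative to its interval (−0.85), and the intervals of Cdkn1a spanned 0 in all 4 comparisons.

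Without busulfan no member passed either, and 0 of 15790 genes did by limma, although 15.2% and 15.6% of all genes had an unadjusted p under 0.05 at 10 and 50 μg/mL. Trp53 was lower in every A10 sample than in any A0 sample, as were 12.2% of all genes (log2 change −0.38, 95% interval −0.71 to −0.04, adjusted p = 0.322), and Sesn2 was at −0.27 (−0.54 to −0.004, adjusted p = 0.3261). At 50 μg/mL, 5 members (Cdkn1a, Ccng1, Eda2r, Aen and Trp53) lay below A0 in every sample, beside 23.2% of all genes, and Mdm2 lay above, beside 17.6%. The estimates were −1.03 for Cdkn1a, −0.21 for Ccng1, −0.17 for Eda2r, −0.28 for Aen, −0.27 for Trp53 and 0.16 for Mdm2.

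Whether AOS acted differently after busulfan was tested as the difference of the 2 AOS changes. No member passed, nor did any of all genes tested at either concentration. At 50 μg/mL, 3 members had an unadjusted p under 0.05, beside 6.28% of all genes: Trp53inp1 (difference −0.77, 95% interval −1.48 to −0.07, adjusted p = 0.768), Zmat3 (−0.47, −0.89 to −0.04, adjusted p = 0.768) and Mdm2 (−0.29, −0.57 to −0.02, adjusted p = 0.781). At 10 μg/mL, 0 members did, beside 3.97%. So a smaller busulfan change of Trp53inp1 at 50 μg/mL than without AOS (0.04 against 0.81) was not shown once all genes were taken into account.

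Further genes were taken from 4 lists of p53 targets, and here too calls refer to the busulfan change over all AOS concentrations. Whether p53 drives each of these genes in the mouse testis was not tested. Among 9 genes of cell death, 2 were higher and 1 lower, with a median of 0.23. Bax, which opens the outer mitochondrial membrane, rose from a range of 37.5 to 65.8 FPKM to one of 54.9 to 82.5 (log2 change 0.40, SE 0.091, adjusted p = 0.002886), and the death receptor Tnfrsf10b rose by 0.37. Pmaip1, the mitochondrial death protein Noxa, fell by 0.91 (SE 0.13, adjusted p = 5.244e-05), from a median of 6.18 to 3.12 FPKM. Bbc3, which encodes Puma, was at 0.23 and the death receptor Fas at 0.26, and neither passed. The list thus held called members in both directions, and the other 6 did not pass.

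Among 9 tested genes of arrest and stress, 4 were higher and 1 lower, with a median of 0.36. Psrc1, a spindle protein, had the largest rise of all further targets, 0.97 (SE 0.16, adjusted p = 0.0002414), and 8 of 9 busulfan samples lay above every sample without busulfan (4.07 to 10.97 FPKM after 2.00 to 4.54). The secreted stress cytokine Gdf15 rose by 0.66, the antiproliferative gene Btg2 by 0.45 and Gadd45a, a growth arrest gene induced by DNA damage, by 0.40. Fbxw7, part of a ubiquitin ligase, fell by 0.22.

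Among 5 genes of DNA repair, the polymerase gene Polk rose by 0.23 and Ddb2, which recognises damaged bases, fell by 0.71 (SE 0.090, adjusted p = 1.418e-05). All 9 busulfan samples of Ddb2 (2.32 to 4.48 FPKM) lay below all 9 others (5.20 to 7.33), as in 9.66% of all genes. Among 10 genes of metabolism and other functions, 6 were higher and 0 lower: the sugar reductase gene Dcxr (0.71), the epoxide hydrolase gene Ephx1 (0.68), Ak1 (0.41), Epha2 (0.32), Abhd4 (0.32) and Slc19a2 (0.29). In all 4 lists, 13 of 33 tested genes were higher and 3 lower, beside 13.3% and 24.8% of all genes. Without the 3 samples that stood apart, 18 were higher and 3 lower, with no share of all genes to set beside them. Leaving out 1 sample gave 5308 to 6408 calls over all genes in either direction, so such counts move for all genes too. Whether the rise from 13 to 18 went beyond that was not tested. In the arrest and stress list 7 were then higher and in that of cell death 4. In that of DNA repair 2 were higher, and in that of metabolism 5, where Abhd4 did not pass. None of the 16 calls from all 18 samples turned its direction under TPM or quantile normalization. Abhd4 did not pass under either and Fbxw7 did not pass under the second.

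Among 15 tested genes that sense damage or control p53, 10 were lower, 1 was higher and 4 did not pass, with a median of −0.26, beside 24.8% of all genes called lower and 13.3% higher. Atr, which encodes the ATR kinase, fell by 2.11 (SE 0.075, adjusted p = 1.844e-11), from 28.7 to 50.3 FPKM without busulfan to 7.20 to 10.4 with it. Cdkn2a, whose products include an inhibitor of Mdm2, fell by 1.56, the acetyltransferase gene Kat5 by 0.78, the checkpoint kinase gene Chek1 by 0.72 and Atm by 0.46. Cop1, Mdm4, Prkdc, Chek2 and Trp53bp1 fell by 0.20 to 0.29. Hipk2, a kinase that phosphorylates p53, rose by 0.44, and the p53 relatives Trp63 and Trp73 stayed below 1 FPKM in every sample. All 11 calls had the same direction under TPM and quantile normalization, and Chek2 and Prkdc did not pass under the second. Without the 3 samples that stood apart, 12 were lower and 1 higher.

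Of 12 genes of cell division that are known to fall when p21 acts, 12 were lower (11 under quantile normalization), with a median of −0.86 and the strongest falls in Top2a (−1.75), Aurka (−1.53), Cdc20 (−1.37), Mki67 (−1.25) and Bub1 (−1.01). Of all genes 24.8% were called lower. Top2a, a topoisomerase of dividing cells, went from 35.4 to 45.4 FPKM without busulfan to 9.43 to 13.8 with it. Cdkn1a itself did not pass in the same samples.

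**Figure D4:**
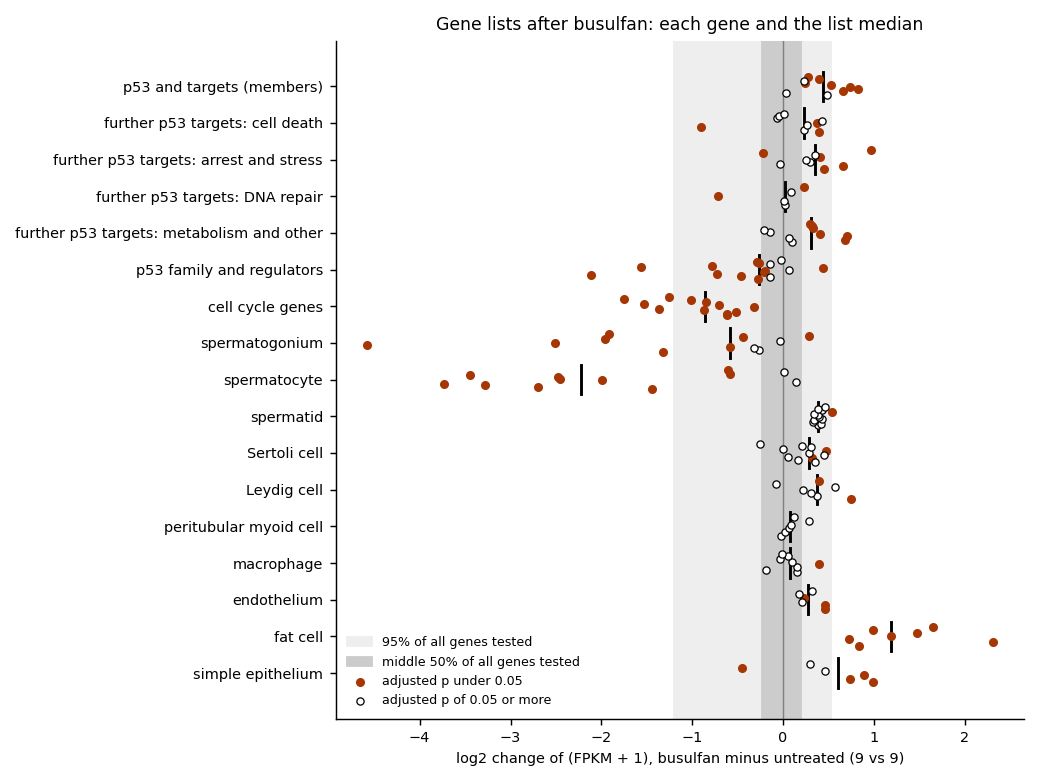
Change of every tested gene of the 17 lists after busulfan on the log2(FPKM + 1) scale (horizontal axis), 9 samples against 9, with filled points for adjusted p under 0.05, a bar at each list median and shading for the middle 50% and 95% of all genes tested. The medians were 0.44 for the 10 members, −0.86 for the cell cycle genes and −2.22 for the spermatocyte genes.

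Levels of cell type markers moved with busulfan as well. In bulk tissue, fewer cells of a type and less RNA per cell cannot be told apart. Beside the marker counts that follow, 24.8% of all genes were called lower and 13.3% higher over the 3 AOS concentrations. Of 12 spermatocyte markers, 10 were lower, with a median of −2.22, and their summed FPKM, most of it from Ldhc and Pgk2, fell from a range of 1010 to 2414 without busulfan to one of 564 to 1524. Of 11 tested spermatogonium markers, 7 were lower and 1 higher (median −0.58, highest levels Uchl1 and Stra8), and Stra8, which starts meiosis, was at 14.2 to 35.4 FPKM without busulfan and at 0 to 0.12 with it. Spermatid markers (12, led by Prm2 and Prm1) had a median of 0.39 over the 3 AOS concentrations and 1 was called, higher. Without AOS (B0 against A0) the spermatid median was −0.04, with 4 of 12 above 0 and 0 called. Without the 3 samples that stood apart, 8 spermatogonium markers were lower and 0 higher (median −0.43), and 2 spermatid markers were higher (median 0.30).

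Over the 3 AOS concentrations, markers of the somatic cells had medians at or above that of all genes: Leydig cells 0.37 (2 of 7 higher), Sertoli cells 0.29 (2 of 11), endothelium 0.28 (3 of 6), peritubular myoid cells 0.08 (0 of 6) and macrophages 0.07 (1 of 8). Of all genes 13.3% were called higher, and the counts of Sertoli cells, myoid cells and macrophages lay near or below that share. Without AOS (B0 against A0) the medians were 0.32, −0.02, 0.54, 0.38 and −0.11 in the same order, with 0 called. Without the 3 samples that stood apart, the Sertoli cell median was 0.0975 (2 higher, 1 lower), that of endothelium 0.50 (5 of 6 higher), that of Leydig cells 0.46 (4 of 7) and that of macrophages 0.25 (2 of 8). The highest levels in these lists were those of Insl3 and Cyp11a1 in the Leydig cell list, Clu and Cldn11 in that of Sertoli cells, Cdh5 and Emcn in that of endothelium, Tagln and Acta2 in that of myoid cells and Cd68 and C1qa in that of macrophages. FPKM is relative to all RNA of a sample, and the part of these marker changes in the rises of Phlda3, Eda2r, Ccng1, Trp53inp1, Zmat3, Trp53 and Sesn2 was not tested. The falls of Atr, Chek1 and the cell cycle genes stand beside the same falls of germ cell markers, and their part in them was not tested either.

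The marker sums of fat and simple epithelium were highest in B0. Summed fat cell markers (led by Fabp4 and Cfd) ran from 207 to 888 FPKM in B0 and from 42.5 to 138 in the other 5 groups. All 7 tested were higher over the 3 concentrations (median 1.18), beside 13.3% of all genes. Simple epithelium markers (highest levels Epcam and Krt18) summed to 81.4 to 216 in B0 and 17.8 to 48.9 elsewhere. Of these, 3 of 6 were called higher and 1 lower (median 0.60). Without the 3 samples that stood apart it was 4 and 1 (median 0.77). Epcam, the 1 called lower, was at 11.31, 26.02 and 21.67 FPKM in B0 and at 24.90, 23.93 and 19.42 in A0. Krt18 was at 25.29, 69.21 and 29.56 in B0 and at 9.61, 3.61 and 2.98 in A0. B0 replicate 1 had the highest fat cell sum of all 18 samples. It also had the highest Cdkn1a (198.42), Phlda3 (38.90), Aen (29.39), Sesn2 (16.41) and Eda2r (6.09). In Ccng1 (63.29) and Trp53inp1 (26.99) it was instead the lowest B0 sample, and it was not the highest of all in Mdm2, Zmat3 or Trp53. Fat cell sums were also higher in BA10 and BA50 (67.98 to 138) than in A10 and A50 (42.5 to 63.2). The part of fat and epithelium RNA in the member values was not tested.

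The samples that stood apart did so in cell markers as well. BA50 replicate 2 and BA10 replicate 2 had the highest spermatid sums of all (11905 and 7450 FPKM) and among the lowest macrophage (126 and 191) and endothelium sums (36.0 and 49.8), and they were the lowest of their groups in 9 and 8 of the 10 members. A10 replicate 3 had the lowest Sertoli cell sum, 1133 FPKM, beside 2542 or more in the other 17 samples, with the lowest Trp53 (21.46) and Ccng1 (27.28) and the highest Mdm2 (53.22) of all 18. Without these 3, the 7 members called over all AOS concentrations were called too and Aen joined them. Leaving out the lowest sample of BA10 or BA50 raises that group's mean by construction.

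**Figure D5:**
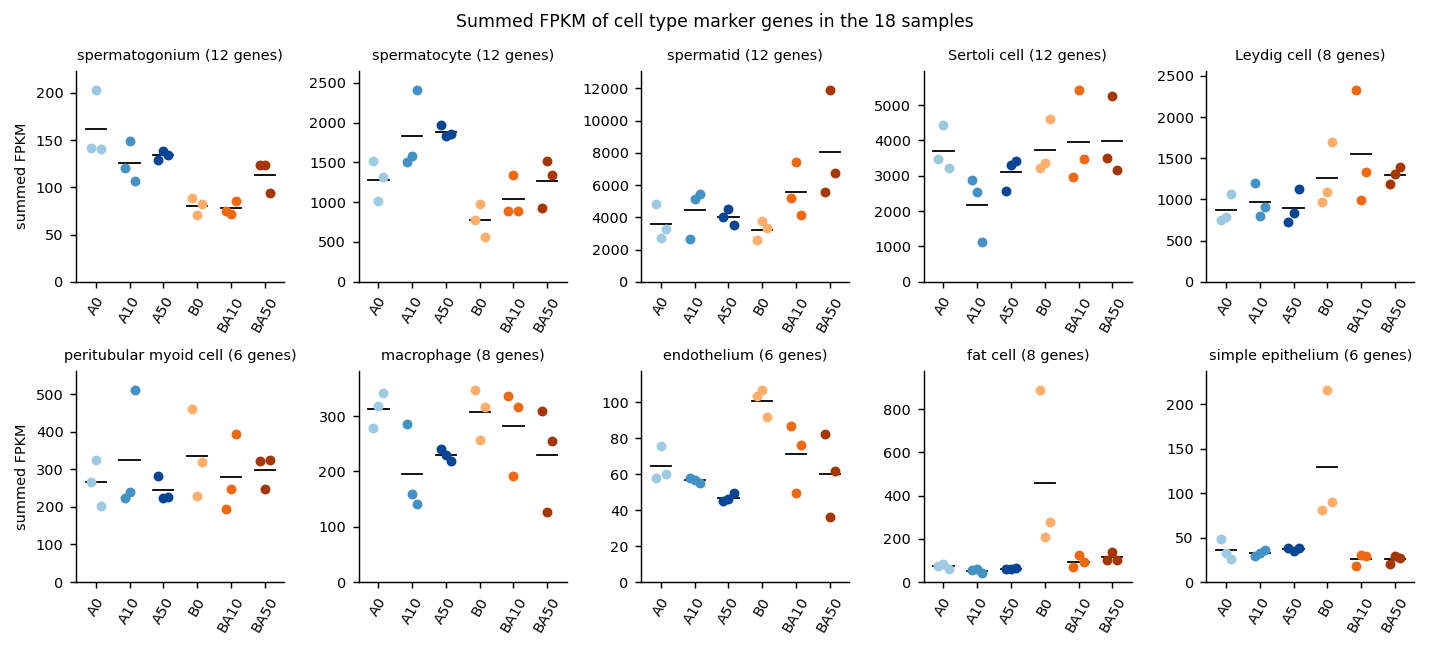
Summed FPKM of marker genes of 10 cell types (vertical axes, each from 0) in each sample of the 6 groups (horizontal axes), with 1 point per sample and a line at the group mean. Spermatocyte sums were at 564 to 984 in B0 and 1010 to 1518 in A0, and fat cell sums were at 207 to 888 in B0 and at most 138 in the other groups.

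The members did not all move together across the 18 samples. Pearson's r of log2(FPKM + 1) was 0.94 between Ccng1 and Eda2r, 0.93 between Eda2r and Zmat3 and 0.89 between Phlda3 and Eda2r, but −0.50 between Mdm2 and Trp53 and at most 0.40 between Cdkn1a and any other member. These values rest on samples that share groups and cell make-up, and they describe the table only. Of all genes tested, the ones nearest to Ccng1 were Gsto1 (0.97) and Golim4 (0.96), to Phlda3 Tkt (0.96) and Rhog (0.96), to Eda2r Inka2 (0.94) and Ccng1, and to Zmat3 Eda2r and Bean1 (0.92). Trp53inp1 was nearest to Ginm1 (0.93) and Fmo4 (0.93), Sesn2 to Tcf25 (0.96) and Tpra1 (0.95), Aen to Cav1 (0.97) and Pabpc4 (0.95), and Trp53 to Otub1 (0.98) and Aph1a (0.98). Cdkn1a was nearest to 2 interferon-inducible genes, Ifi203 (0.81) and Ifi204 (0.81), and Mdm2 to Ramac (0.81) and Srp72 (0.78).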

How the data were processed

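The authors prepared poly(A) RNA libraries from the cultured testes, sequenced them on a HiSeq 2500 and deposited 1 table of FPKM per gene and sample, rounded to 2 decimals. The submitters' processing notes name HISAT, Bowtie2, RSEM and GRCm38.p5, while the supplementary methods name SOAPaligner 2.20 and RPKM. Which of these made the deposited FPKM is not given in the sources used here. Read depth is unknown, so no count test or counting interval was possible, and the DEGseq test of the methods, which needs counts, was not run. AOS concentrations follow the sample labels (μg/mL); the series' design text gives the same figures as mg/kg body weight.

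Symbols came from the RefSeq table of GRCm38.p6 by NCBI gene number (20656 of 20811 had one). Genes that reached 1 FPKM in 3 or more samples were tested with limma 3.58.1 (R 4.3.3) on log2(FPKM + 1), with 1 coefficient per group over all 18 samples, eBayes with trend (12 residual and 2.56 prior degrees of freedom) and Benjamini-Hochberg adjustment over all 15790 genes. The log2(FPKM + 1) scale understates changes of genes near 1 FPKM, such as Eda2r and Zmat3. The fit was tested on simulated data in which 200 of 15790 genes were moved in the busulfan samples. At adjusted p under 0.05 it recovered 115 of the 200 at a log2 change of 0.5, 184 at 1 and 195 at 2. False calls numbered 7, 6 and 10. In the data 2097 genes were called higher and 3921 lower, far more than the 200 moved. The adjustment is less strict when more genes change, so these recovery counts do not give the power in the data. Whether changes near 0.5 or below, as in several members, were missed was thus not tested. Single members were also tested by exact two-sided permutation of the busulfan labels within AOS concentrations (smallest p 0.00025). Quoted means are ± SD. Alternatives were a replicate block, a pseudocount of 0.1, no filter, a mean of at least 5 FPKM, TPM scaling, quantile normalization, eBayes without trend, only the groups compared (for all concentrations together, those with AOS), each sample left out in turn, and, added after seeing the data, leaving out 3 samples together and a block over B0 and BA50 alone. Replicate numbers come from the labels, which do not mark pairs. Same-numbered samples were taken as pairs where all 3 correlations of their deviations from the group means were over 0.1. This held for B0 and BA50 alone of 7 pairs of groups (0.562, 0.422 and 0.138), so that pairing was chosen from the data. Promoter windows were searched in Python 3.11.15 with pandas 2.3.3, and figures were drawn with matplotlib 3.10.9.

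The 10 members, the 16 other gene lists and the tests were chosen with earlier results of these data known. The genes named are all members, every called gene of the p53 target, regulator and cell cycle lists (if over 10 in a list, up to 5 in each direction), the 2 highest genes of each cell type list, and the 2 genes of most similar pattern per member; further genes (Bbc3, Fas, Trp63, Trp73 and the smaller falls among regulators) were named after their values were seen.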

Additional observations from a re-analysis of the deposited data

Results flagged for a closer look

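Mdm2 was the 1 member whose busulfan comparison went opposite ways at different AOS concentrations without overlap. Without AOS every B0 sample lay above every A0 sample, with means of 48.1 ± 3.60 and 41.4 ± 3.06 FPKM (SD, n = 3 each) and a ratio of 1.162. At 50 μg/mL every BA50 sample lay below every A50 sample, with means of 43.7 ± 0.619 and 46.3 ± 0.854 FPKM and a ratio of 0.94. The separation itself was not tested. The difference of the AOS changes at 50 μg/mL, which holds the same 4 groups, was −0.29 on the log2 scale (95% interval −0.57 to −0.02) with limma adjusted p = 0.781 over all genes.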

How the results depend on the processing

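Most results kept direction and call: of 1710 values of single members and comparisons under the alternatives, 1576 kept both, 62 no longer passed, 15 newly passed and 57 turned their sign, 41 of these on leaving out 1 sample. The number of members called over all AOS concentrations was 4 to 8 (7 as reported), with 4 from the groups with AOS alone. Where fewer calls came from a fit of only the groups compared, the strict filter (Eda2r and Zmat3 not tested) or fewer samples, that construction lowers them; for the others the cause was not tested. Depth being unknown, its limits could not be stated.

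The replicate block did not change the count of 7. It lowered that at 10 μg/mL from 4 to 2, with Phlda3 (adjusted p = 0.05558) and Trp53inp1 (adjusted p = 0.05511) just past the limit. Eda2r and Ccng1 were then the members called at every concentration. Mean r of same-numbered deviations was −0.206 for B0 and A0, 0.0145 for BA10 and A10 and 0.123 for BA50 and A50, so the numbers were not taken to pair samples across busulfan. They were for B0 and BA50, and a block over these alone, chosen after seeing the data, called 0 members and 14 genes. The block changed no other call of a member. In the marker lists it lost Tssk6 (spermatid, 0 called) and Tek (endothelium, 2 called), and 3 Leydig cell genes passed in place of 2.

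Under quantile normalization Aen passed over all concentrations, Mdm2 without AOS, and Zmat3 and Sesn2 at 10 μg/mL, while Ccng1 at 50 μg/mL did not. At 10 μg/mL the count was also 2 without a filter and 0 with only the groups compared. At 50 μg/mL it was 1 under TPM, 0 with only the groups compared and 5 without the 3 samples that stood apart. Without AOS it was 3 under the strict filter, and 1 member met the limits of the methods under quantile normalization. Leaving out 1 sample gave 3 to 4 members without AOS, 2 to 5 at 10 μg/mL, 0 to 3 at 50 μg/mL and 0 to 3 for AOS 50 after busulfan (3 without BA50 replicate 1). With 1 left out, 2 samples remained in that group.

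Log2 changes that turned their sign were these. Under TPM they were Mdm2 overall (−0.002654), Trp53inp1 at 50 μg/mL (−0.0404) and the AOS 50 difference of Phlda3 (−0.0203). Under quantile normalization they were Mdm2 at 10 μg/mL (0.0202), Trp53inp1 for AOS 10 without busulfan (0.0415) and the AOS 50 difference of Phlda3 (−0.0359). With the AOS groups alone Mdm2 was at −0.0497 overall. Without the 3 samples that stood apart, Cdkn1a (0.0398) and Mdm2 (0.0308) turned at 10 μg/mL, Ccng1 (0.001158) and Trp53inp1 (0.14) for AOS 10 without busulfan, Eda2r (0.009226) and Trp53inp1 (0.11) for AOS 10 after busulfan, Ccng1 (−0.0424) and Eda2r (0.072) in the AOS 10 difference and Aen (0.13) in the AOS 50 difference.

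Leaving out 1 sample turned signs in these ranges. For busulfan at 10 μg/mL, Cdkn1a ran from −0.78 to 0.64 and Mdm2 from −0.0746 to 0.0757, and at 50 μg/mL Cdkn1a from −0.21 to 1.86 and Trp53inp1 from −0.11 to 0.24. For AOS 10 without busulfan, Cdkn1a ran from −1.22 to 0.033, Ccng1 from −0.29 to 0.001158 and Trp53inp1 from −0.19 to 0.14, and for AOS 50 Trp53inp1 from −0.22 to 0.0347. For AOS 10 after busulfan, Eda2r ran from −0.26 to 0.009226 and Trp53inp1 from −0.22 to 0.11. In the AOS 10 difference, Ccng1 ran from −0.11 to 0.19, Phlda3 from −0.28 to 0.069, Eda2r from −0.16 to 0.11, Trp53inp1 from −0.23 to 0.13 and Aen from −0.28 to 9.268e-05. In the AOS 50 difference, Cdkn1a ran from −1.16 to 0.90, Phlda3 from −0.24 to 0.29, Sesn2 from −0.0231 to 0.17 and Aen from −0.24 to 0.13.

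Over all genes, calls under the limits of the methods in the overall busulfan change were 570, but 856 with a pseudocount of 0.1 and 320 under the strict filter. The same limits gave 401, 476 and 536 without AOS, at 10 and at 50 μg/mL, but 189, 261 and 280 under the strict filter and 58, 49 and 179 with only the groups compared. Adjusted p under 0.05 for BA10 against A10 gave 2987, but 1123 with only the groups compared. BA50 against B0 gave 15, but 4 with the replicate block, 6 with a pseudocount of 0.1 or under the strict filter, 37 without a filter, 9 under TPM, 0 with only the groups compared or without the 3 samples that stood apart, and 0 to 1115 on leaving out 1 sample (1115 without BA50 replicate 1). BA10 against B0 gave 4, but 1 with the block, 2 with a pseudocount of 0.1, 10 without a filter, 0 with only the groups compared or without the 3 samples, and 0 to 16 on leaving out 1 sample. The AOS comparisons without busulfan and the differences gave 0, and at most 3 under any alternative.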
